A study of Mus musculus with 9 samples.

Results

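The 7 genes described here serve cholesterol synthesis. *Hmgcs1*, *Idi1*, *Fdft1*, *Sqle*, *Lss* and *Dhcr7* encode enzymes of the pathway and *Insig1* encodes its feedback regulator. They were chosen by symbol, as the rows of the table whose Ensembl identifier maps to these names, and are 7 of 15464 genes listed. All 7 of 7 passed the filter on low values (at least 10 normalized counts in at least 3 libraries), which kept 14239 genes for testing.

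The striatum was taken from male mice aged 10 to 12 weeks on a C57BL/6J background and measured by stranded mRNA sequencing. WT mice carried intact *Shank3*, HET mice carried 1 targeted copy of the *Shank3B* allele, and KO mice carried the targeted allele on both copies. Each genotype had 3 mice, with 1 mouse giving 1 library, and the comparisons ask whether the level of a gene differs with the number of intact copies. *Shank3* encodes a scaffold protein of excitatory synapses. The *Shank3B* allele targets internal exons only and is not limited to a cell type by a promoter or a Cre driver.

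Cells make cholesterol from acetyl-CoA in a long series of steps, first to mevalonate and isoprenoid units, then to squalene, then to lanosterol, and finally through sterol intermediates to cholesterol. Because the blood-brain barrier holds back lipoprotein cholesterol, the brain makes nearly all of its own, and glial cells, oligodendrocytes in particular during myelination, are strong producers. The transcription factor SREBP2 raises the genes of the pathway when sterols in the endoplasmic reticulum run low, and INSIG proteins hold its escort protein back when sterols are plentiful.

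Values are normalized counts, which are gene-level read estimates divided by a size factor for each library. Their sums ranged from 30830020 in HET 1 to 33790296 in HET 3, and the depth in reads is unknown. Over all genes, HET 3 and KO 3 stood apart from the other libraries. On the first principal component, which held 33.6% of the variance, HET 3 scored 33.8 and KO 3 scored 34.2, while the other 7 libraries lay between -17.0 and 1.36. Differences of the 7 genes from WT are therefore given with and without them. HET against WT and KO against WT use the same 3 WT libraries, so they are not independent of each other.

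*Shank3* itself (chr15:89499623-89560261) had 7209, 8812 and 6043 normalized counts in WT 1, WT 2 and WT 3. It was at 7575, 7098 and 8050 in the HET libraries and at 10237, 10798 and 10578 in the KO libraries. The KO libraries were higher than every WT and HET library. The value is a sum over the whole gene, including exons that the allele leaves in place, so it does not check the genotype labels. The difference of KO from WT had a log2FC of 0.54 (95% interval 0.25 to 0.82) and did not pass the adjusted threshold (limma with Benjamini-Hochberg adjustment, adjusted p = 0.999). The paper, with a different test and p-value correction, did call *Shank3* higher in KO. It attributed the rise to exons outside the targeted ones and also reported it by quantitative PCR.

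*Hmgcs1* (chr13:119690379-119708260), whose enzyme makes HMG-CoA at the entry to the pathway, was measured in WT at 8001, 7910 and 10187 normalized counts. The HET libraries held 9271, 9682 and 8220, and the KO libraries 8278, 8783 and 9048. WT 3 was the highest library and WT 2 the lowest, so all HET and KO values lay inside the WT range. Group means were 8699 ± 1289 in WT, 9058 ± 754 in HET and 8703 ± 391 in KO (SD, n = 3). Differences are given as log2FC, the difference of mean log2(normalized count + 1) from limma, with its 95% interval. For *Hmgcs1* the log2FC was 0.06 (-0.20 to 0.33) in HET against WT and 0.0097 (-0.25 to 0.27) in KO against WT, and -0.06 (-0.32 to 0.21) in KO against HET. None was larger than the spread between mice. Without HET 3 and KO 3 the log2FC against WT was 0.13 in HET and -0.019 in KO. HET against WT was 0.0014 without WT 2 and 0.18 without WT 3. KO against HET was -0.0054 without HET 2 and -0.12 without HET 3.

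*Idi1* (chr13:8885501-8892451) encodes the isomerase that interconverts the isoprenoid building blocks. It was at 1420, 1239 and 1564 in the WT libraries, at 1757, 1613 and 1377 in the HET libraries and at 1623, 1336 and 1263 in the KO libraries. HET 1 and KO 1 were highest and WT 2 lowest, and the 3 genotypes overlapped. HET against WT gave a log2FC of 0.17 (-0.13 to 0.47), KO against WT -0.0020 (-0.30 to 0.30), and KO against HET -0.17 (-0.47 to 0.13). With HET 3 and KO 3 left out, the values against WT were 0.26 in HET and 0.072 in KO. HET against WT was 0.079 without WT 2 and 0.089 without HET 1. KO against HET was -0.28 without KO 1 and -0.091 without HET 1.

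*Fdft1* (chr14:63145150-63179578) encodes squalene synthase, which commits isoprenoids to sterols. The WT libraries held 2905, 3238 and 3254 normalized counts, the HET libraries 3264, 3380 and 4006, and the KO libraries 3414, 3048 and 4003. Every HET library was above every WT library, although HET 1 exceeded WT 3 by less than 10 normalized counts, and KO 2 lay inside the WT range. The highest libraries were HET 3 and KO 3. The log2FC was 0.18 (-0.09 to 0.45) in HET and 0.15 (-0.12 to 0.42) in KO against WT. Leaving out HET 3 and KO 3 brought these to 0.087 and 0.044. The 2-sided exact permutation test gave p = 0.1 for HET against WT, the smallest value that 3 against 3 can reach.

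*Sqle* (chr15:59315077-59331192) encodes squalene epoxidase, a rate-limiting step after squalene. It was at 1573, 1469 and 1834 in WT, at 1547, 1872 and 1391 in HET and at 1686, 1754 and 1436 in KO. The lowest libraries were HET 3 and KO 3, and the genotypes overlapped. Against WT the log2FC was -0.02 (-0.32 to 0.28) in HET and 0.00097 (-0.30 to 0.30) in KO. Both were above 0 without HET 3 and KO 3, at 0.073 in HET and 0.088 in KO.

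*Lss* (chr10:76531588-76557138), whose product closes the sterol rings to give lanosterol, was at 1656, 1526 and 1866 in WT. HET mice spread most, at 2134, 1384 and 1694, while KO mice lay close together at 1764, 1684 and 1739. HET 1 was the highest and HET 2 the lowest of the 9 libraries. The SD was 377 normalized counts in HET and 40.8 in KO. The log2FC against WT was 0.03 (-0.29 to 0.35) in HET and 0.04 (-0.28 to 0.37) in KO, and 0.036 and 0.040 without HET 3 and KO 3.

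*Dhcr7* (chr7:143823145-143848410) encodes the reductase of the last step to cholesterol and varied most. Its residual SD over the 9 libraries was 0.31 on the log2 scale, higher than in 76.7% of genes tested, while the residual SD of the other 6 genes was 0.14 to 0.20. The WT libraries held 1069, 951 and 1118 normalized counts, the HET libraries 1274, 1085 and 1954, and the KO libraries 1214, 1131 and 1628. Far above the rest were HET 3 and KO 3. All KO libraries were above all WT libraries, with KO 2 only just above WT 3, while HET 2 lay within the WT range. Means were 1046 ± 86.2, 1437 ± 457 and 1325 ± 266 (SD, n = 3) in WT, HET and KO. The log2FC against WT was 0.42 (-0.05 to 0.88) in HET and 0.33 (-0.14 to 0.79) in KO, neither at an unadjusted p under 0.05. Without HET 3 and KO 3 they were 0.17 and 0.17. The exact permutation test gave p = 0.2 in HET and 0.1, the smallest possible, in KO. Removing 1 library brought *Dhcr7* under an unadjusted 0.05 in HET against WT without HET 2 (log2FC 0.60), and in KO against WT without HET 3, which left the log2FC at 0.33 and changed the estimate of the spread only.

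*Insig1* (chr5:28071363-28078662) encodes the feedback regulator that retains the SREBP escort protein and is itself raised by SREBP2. Its normalized counts were 2436, 1979 and 2280 in WT, 3229, 2423 and 3033 in HET, and 2843, 2233 and 2447 in KO. HET 1, HET 3 and KO 1 were highest. HET 2 fell just below WT 1, so HET and WT overlapped, and KO overlapped both. Means were 2232 ± 232 in WT, 2895 ± 420 in HET and 2508 ± 309 in KO (SD, n = 3). HET against WT had a log2FC of 0.37 (0.07 to 0.67), a 1.29-fold difference, under an unadjusted 0.05 in limma but with an adjusted p = 0.999. The exact permutation test gave p = 0.2. KO against WT was 0.17 (-0.14 to 0.47) and KO against HET -0.20 (-0.51 to 0.10). The HET difference lost its unadjusted call when WT 2 (log2FC 0.29), HET 1 (0.29) or HET 3 (0.33) was left out, and when HET 3 and KO 3 were both left out (0.33). KO against WT was 0.18 without HET 3 and KO 3. It was 0.072 without KO 1, 0.082 without WT 2 and 0.25 without KO 2. KO against HET was -0.12 without HET 1 and -0.33 without HET 2.

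**Figure D1:**
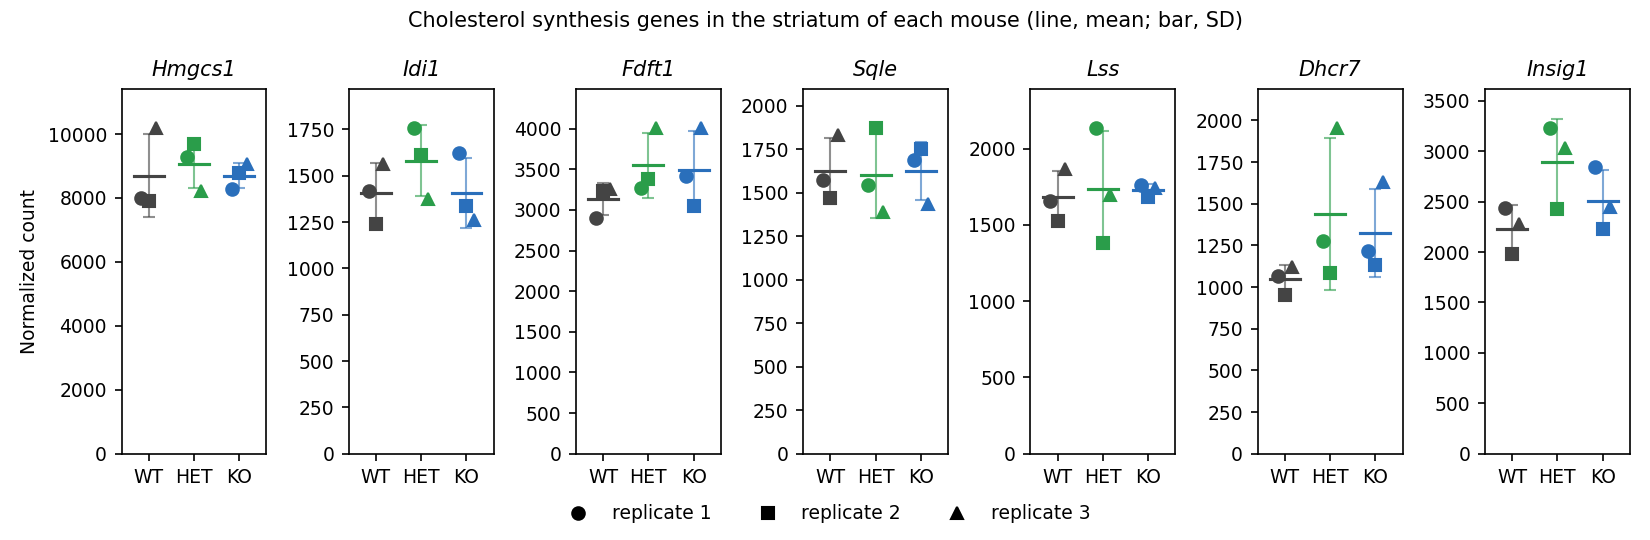
Normalized counts (vertical axes, from 0) of the 7 genes in the striatum of each mouse, by genotype, with 1 point per mouse, a line at the mean and a bar of 1 SD. HET 3 and KO 3 (triangles) are the highest libraries for *Fdft1* and *Dhcr7* and the lowest for *Sqle*.

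Between genes, levels can be set side by side only per transcript length. In WT, *Hmgcs1* had 2511 normalized counts per kb, *Fdft1* 847, *Insig1* 827, *Sqle* 589, *Idi1* 465, *Dhcr7* 372 and *Lss* 361. *Hmgcs1* stood above 95.1% of the genes tested on this scale. The other 6 stood between the 61.6 and 82.3 percentiles. The pairs *Fdft1* and *Insig1*, and *Dhcr7* and *Lss*, were neighbours closer than the spread between mice.

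In HET against WT, 0 of 7 genes passed an adjusted p of 0.05 in limma, as did 0% of all 14239 genes tested. At an unadjusted p under 0.05 there was 1 of 7 (*Insig1*), beside 1.11% of all genes (158 genes). With no change at all, a share near 0.05 would be the nominal rate, and each comparison of this fit gave less. Counts of 0 therefore do not show that no gene changed. Libraries of the 2 genotypes did not overlap for 1 of 7 (*Fdft1*, higher in HET), beside 4.45% of all genes in either direction. The log2FC was positive for 6 of 7, beside 49.3% of all genes, and the median was 0.17, beside -0.0027. The median was 0.13 without HET 3 and KO 3, 0.079 without WT 2 and 0.089 without HET 1. A single gene of 7 gives no share that can be read against these backgrounds.

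In KO against WT, 0 of 7 passed the adjusted threshold in limma (0% of all genes) and 0 of 7 were at an unadjusted p under 0.05 (0.822% of all genes, 117 genes). Libraries did not overlap for 1 of 7 (*Dhcr7*, higher in KO), beside 4.54% of all genes. The median log2FC was 0.04 over the members and 0.0047 over all genes tested. 6 of 7 were positive, against 51.6% of all genes, but 3 of those lay within 0.05 of 0. Intervals for the 7 genes in this comparison ran from -0.30 to 0.79. The median was 0.072 without KO 3, 0.13 without WT 3 and -0.024 without WT 2.

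KO against HET gave 0 of 7 past the adjusted threshold in limma (0% of all genes), 0 of 7 at an unadjusted p under 0.05 (1.31% of all genes, 186 genes) and 0 of 7 without overlap (4.45% of all genes). The median was -0.06 beside -0.00099 for all genes, with 2 of 7 positive, beside 49.6% of all genes. Leaving out 1 library gave medians from -0.020 (without KO 1) to -0.14 (without HET 2), with -0.032 without KO 2, -0.096 without KO 3 and -0.086 without HET 1. In this comparison, same-numbered HET and KO libraries correlated. Because HET 3 and KO 3 stand apart together, that does not show a pairing by replicate number. Blocking on that number brought 1 of 7 under an unadjusted 0.05, *Insig1* (log2FC -0.20, adjusted p = 1.00 from limma), beside 2.23% of all genes. With only HET and KO in the blocked fit, an alternative chosen after seeing the data, it was 2 of 7, *Insig1* and *Idi1* (log2FC -0.17), both with an adjusted p = 0.958 from limma, and 4.95% of all genes were under an unadjusted 0.05. Without HET 2, *Insig1* alone was under 0.05 unadjusted, at a log2FC of -0.33, beside 2.13% of all genes.

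**Figure D2:**
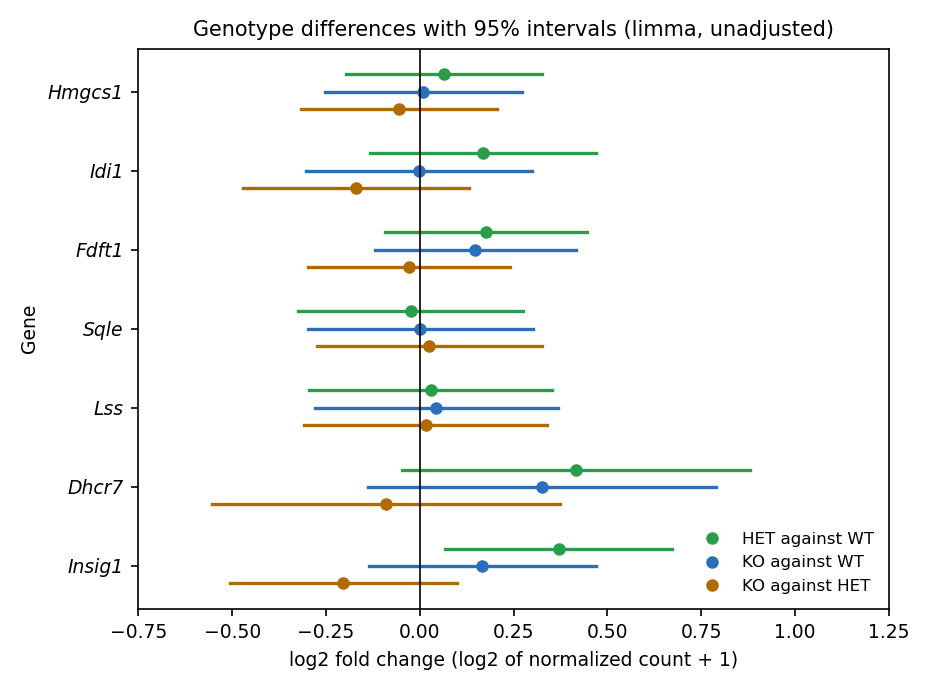
log2FC of the 7 genes in the 3 comparisons (points) with 95% intervals (lines) from limma, unadjusted. Only the interval of *Insig1* in HET against WT, 0.07 to 0.67, leaves out 0.

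Averaged over the 7 genes, the level relative to the WT mean was -0.01, -0.12 and 0.13 (log2) in WT 1, 2 and 3. It was 0.23, 0.08 and 0.20 in the HET libraries and 0.14, 0.02 and 0.13 in the KO libraries. WT 3 had 7 of 7 genes above the WT mean and WT 2 had 1 of 7, so the WT libraries alone spread from -0.12 to 0.13. HET 2 and KO 2 were the lowest of their genotypes.

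The 2 libraries that stand apart had a mixed pattern. HET 3 and KO 3 were both above the other 4 mutant libraries for 2 of 7 genes, *Dhcr7* (by 0.60, log2) and *Fdft1* (by 0.29), and both below for 1 of 7, *Sqle* (a difference of -0.28). *Idi1* differed by -0.26 with overlap, and *Hmgcs1*, *Lss* and *Insig1* lay between -0.06 and 0.04. Over all genes tested 24.0% were above and 22.1% below in this way. Its correlation with the GC content of the transcripts was r = 0.644 over the 7 genes, 0.293 over the 18 synthesis enzymes tested and 0.150 over 14233 genes. *Dhcr7* had the highest GC content of the 7, at 52.8%, and *Idi1* the lowest, at 41.9%. The authors corrected for GC bias when quantifying, and the part of GC content in the result was not tested.

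How the 7 genes varied together was described by correlating their deviations from the genotype mean over 9 libraries. Of 21 pairs, 11 were positive, with a median r of 0.06, from -0.67 for *Sqle* with *Dhcr7* to 0.79 for *Fdft1* with *Dhcr7*. *Hmgcs1* with *Sqle* had r = 0.65 and *Lss* with *Insig1* r = 0.75. Without HET 3 and KO 3, over 7 libraries, 15 of 21 pairs were positive and the median r was 0.28. *Sqle* with *Dhcr7* was then at 0.0079 and *Fdft1* with *Dhcr7* at -0.049. The pairings of *Idi1*, *Lss*, *Dhcr7* and *Insig1*, picked from these values, then lay between 0.61 and 0.90. Over 9 libraries the same pairings ran from -0.43 (*Idi1* with *Dhcr7*) to 0.75 (*Lss* with *Insig1*). Within HET and within KO the remaining libraries deviate by equal and opposite amounts, so the 7 points are not independent. These genes share their libraries, and so also everything that moves a library as a whole.

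Of the other enzymes of the pathway, 12 of 13 listed were tested. In HET against WT 0 passed the adjusted threshold, 1 was at an unadjusted p under 0.05, 10 of 12 were positive and the median log2FC was 0.08. Over all genes 1.11% were at an unadjusted p under 0.05, 4.45% did not overlap and 49.3% were positive. *Mvd*, which makes isopentenyl diphosphate, was at 689, 656 and 682 in WT, 939, 756 and 960 in HET, and 782, 618 and 805 in KO. Every HET library was above every WT library (log2FC 0.38, limma adjusted p = 0.999), and this was the 1 gene under an unadjusted 0.05. In KO against WT 9 of 12 were positive (51.6% of all genes) with a median of 0.04. In KO against HET 3 of 12 were positive (49.6% of all genes) with a median of -0.05. In both, 0 were at an unadjusted p under 0.05. As for the lists and markers below, this is from the fit without a replicate block, and blocked values are given for the members only. *Mvd* (log2FC -0.27) and *Msmo1* (-0.11) were lower in each KO library than in the HET library of the same number. None of the rest tested was lower, or higher, in every pair.

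Of the enzymes between these steps, *Cyp51* and *Msmo1* work on the sterol rings and *Fdps* makes farnesyl diphosphate. Against WT in HET and KO the log2FC was 0.10 and 0.06 for *Cyp51*, 0.06 and -0.03 for *Fdps*, and 0.13 and 0.02 for *Msmo1*, none at an unadjusted p under 0.05. Over all 18 enzymes tested, 4 were above (22.2%, beside 24.0% of all genes) and 5 below (27.8%, beside 22.1%) in HET 3 and KO 3 against the other mutant libraries.

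**Figure D3:**
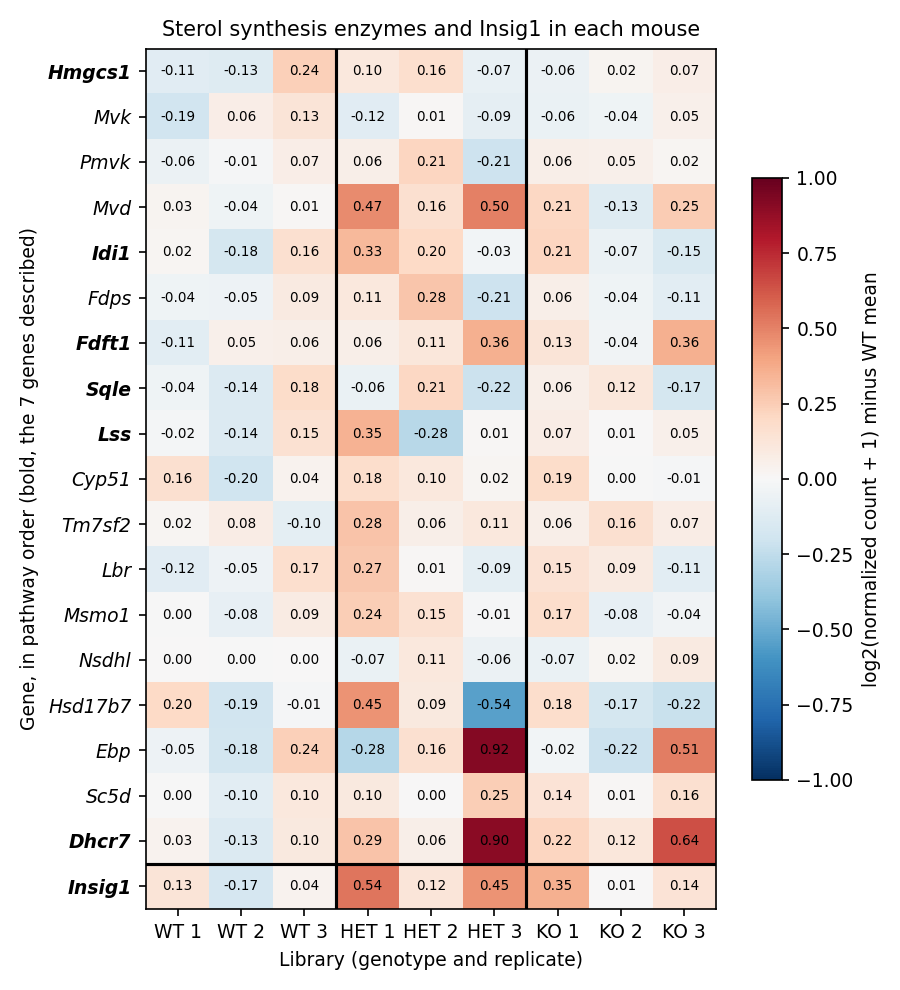
Deviation from the WT mean, log2(normalized count + 1), of 18 sterol synthesis enzymes in pathway order and *Insig1* (rows) in each of 9 libraries (columns), with the 7 genes described in bold. HET 3 and KO 3 are high for *Ebp*, *Fdft1* and *Dhcr7* and low for *Sqle* and *Hsd17b7*, so these libraries are not shifted one way across the pathway.

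Control genes of the SREBP system, 6 of 6 tested, had 0 at an unadjusted p under 0.05 in each comparison. *Srebf2*, which encodes SREBP2, had a log2FC of -0.02 in HET and 0.02 in KO against WT. Among 7 uptake and transport genes 0 were called. *Stard4*, a sterol carrier, was higher in every HET library than in WT (log2FC 0.18) and lower in every KO library than in HET (log2FC -0.15). Of 11 genes for export and sterol sensing, *Soat1*, which esterifies cholesterol, had a log2FC of 0.35 in KO against WT, under an unadjusted 0.05 (0.822% of all genes), and 0 others were called. Of 8 genes tested of 10 on the fatty acid list, which also holds the isoprenoid enzyme *Ggps1*, 0 were called, though *Acss2* did not overlap in HET (log2FC 0.19) nor *Acaca* in KO (log2FC 0.10), both higher than WT. The shares of all genes without overlap were 4.45% in HET against WT, 4.54% in KO against WT and 4.45% in KO against HET. Expression of *Scd1*, *Scd2* and *Acat2* was not analysed here.

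Cell type markers were measured in the same libraries, where 0 passed the adjusted threshold in limma in any comparison. In bulk tissue, fewer cells of a type and less RNA per cell cannot be told apart. Markers of medium spiny neurons, the main neurons of the striatum, were present, 10 of 10, led by *Pde10a*. Oligodendrocyte markers, 12 of 12 tested and led by *Mbp*, summed to 180128, 168953 and 278706 in WT, 238986, 268491 and 262364 in HET, and 236671, 260264 and 146674 in KO. In HET against WT 12 of 12 were positive with a median log2FC of 0.36, and 1 (*Aspa*) was at an unadjusted p under 0.05, beside 49.3% and 1.11% of all genes. In KO against WT 8 of 12 were positive (51.6% of all genes) with a median of 0.05. In KO against HET it was 0 of 12 (49.6% of all genes) with a median of -0.30. WT 3 had the highest sum and KO 3 the lowest. Their part in the result was not tested.

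Medium spiny neuron markers summed to 134302, 151003 and 75913 in WT, 134276, 104334 and 115186 in HET, and 112181, 96536 and 66629 in KO. In HET against WT 6 of 10 were positive with a median log2FC of 0.04. In KO against WT 0 of 10 were positive, with a median log2FC of -0.31, and in KO against HET 0 of 10 with a median of -0.39. Over all genes 49.3% were positive in HET against WT, 51.6% in KO against WT and 49.6% in KO against HET. WT 3 and KO 3 were the lowest libraries. Astrocyte markers (9 of 9, led by *Slc1a2*) summed to 133506 to 158336 in WT, 142612 to 166295 in HET and 139533 to 160923 in KO, and cortical neuron markers (7 of 7, led by *Slc17a7*) to 40426 to 51993, 35013 to 49133 and 39213 to 56304. Sums were 7104 to 8794 over the 9 libraries for oligodendrocyte precursors (6 of 6, led by *Olig1*), 11870 to 13658 for microglia (8 of 8, *Csf1r*), 4707 to 5908 for vessels (5 of 6, *Flt1*) and 162 to 311 for choroid plexus (summed over 7 of 7 in the table, of which 4 were tested, *Clic6*). Vessel markers were positive for 5 of 5 in HET against WT with a median log2FC of 0.21, for 4 of 5 in KO against WT with 0.05 and for 0 of 5 in KO against HET with -0.11. In the same order of comparisons, 5, 6 and 3 of 6 precursor markers were positive, 6, 6 and 2 of 9 astrocyte markers, 4, 3 and 1 of 8 microglia markers, 1, 3 and 6 of 7 cortical neuron markers and 1, 2 and 2 of 4 choroid plexus markers. No listed marker in the table was at 0 in all libraries. Their part in the result was not tested.

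Likeness to the 7 genes was measured as Pearson r between a gene's deviations from the genotype mean and the mean z score of the 7, over 9 libraries. The 10 most alike of 14232 other genes were *Il17rc* (0.940), *Mkx* (0.932), *Plcd1* (0.931), *Clstn2* (0.929), *C1ra* (0.927), *Zwilch* (0.918), *Esrrb* (0.917), *Sfxn5* (0.913), *Pnpla7* (0.908) and *Lurap1* (0.908). None of them is on the pathway lists. The most alike of those lists was *Stard4*, at 0.697 and rank 325, then *Sc5d* at 0.679 and *Msmo1* at 0.647, while *Srebf2* was at -0.564. A high rank among so many genes and 9 libraries is a description only.

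Promoters are shown because SREBP2 acts through a short element near the start of its target genes, usually with NF-Y and Sp1 boxes beside it. The 250 bases before the start were read from RefSeq (GRCm38.p6) for 5 of 7 genes, *Hmgcs1*, *Idi1*, *Lss*, *Dhcr7* (3 starts) and *Insig1*. Searched on both strands, the sterol element TCACNCCAC was found in 1 of 7 windows (*Hmgcs1*), against 1.05% of 32851 promoter windows. Its shorter form CACNCCAC, contained in the first, was found in 2 of 7 (*Hmgcs1* and *Insig1*), against 5.29%. The NF-Y box CCAAT was in 5 of 7, against 33.8%, and the Sp1 box GGGCGG in 6 of 7, against 32.7%. For *Dhcr7*, CCAAT was in 1 of 3 windows, chr7:143829964-143830213. Among the other enzymes, 12 of 13 listed had 13 windows, *Acat2* among them and *Fdps* not, with the sterol element in 0, its shorter form in 1 (*Acat2*), CCAAT in 11 and GGGCGG in 11. The plus-strand stretches upstream of both the RefSeq start and the annotated gene start are given for *Hmgcs1* (chr13:119690101-119690350), *Lss* (chr10:76531355-76531587), *Dhcr7* (chr7:143822917-143823144) and *Insig1* (chr5:28071162-28071362), with motif matches on either strand in capitals. The match of the short form in *Insig1* lies past the end of its stretch. The stretch of *Idi1* (chr13:8885356-8885500) holds 0 matches and is not printed, since its matches lie past the annotated gene start. A match describes letters only.
Hmgcs1: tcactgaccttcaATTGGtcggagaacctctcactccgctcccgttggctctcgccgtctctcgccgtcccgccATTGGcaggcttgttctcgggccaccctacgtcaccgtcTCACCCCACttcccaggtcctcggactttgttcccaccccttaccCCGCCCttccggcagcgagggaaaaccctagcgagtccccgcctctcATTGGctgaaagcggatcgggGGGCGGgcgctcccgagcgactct
Lss: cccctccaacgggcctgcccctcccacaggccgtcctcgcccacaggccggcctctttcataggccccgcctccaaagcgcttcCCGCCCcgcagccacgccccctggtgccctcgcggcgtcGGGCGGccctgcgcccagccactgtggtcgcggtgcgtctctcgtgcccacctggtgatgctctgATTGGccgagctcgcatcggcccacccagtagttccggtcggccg
Dhcr7: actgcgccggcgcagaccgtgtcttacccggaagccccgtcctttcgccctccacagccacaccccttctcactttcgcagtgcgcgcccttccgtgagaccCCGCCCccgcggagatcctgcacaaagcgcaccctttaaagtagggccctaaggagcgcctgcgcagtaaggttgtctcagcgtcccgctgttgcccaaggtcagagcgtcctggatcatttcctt
Insig1: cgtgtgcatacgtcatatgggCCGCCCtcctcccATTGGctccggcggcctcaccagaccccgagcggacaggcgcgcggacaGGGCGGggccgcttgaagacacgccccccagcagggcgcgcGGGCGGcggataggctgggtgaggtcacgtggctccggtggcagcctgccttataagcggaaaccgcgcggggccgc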

How the data were processed

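Striatal RNA of 9 mice (3 WT, 3 HET, 3 KO) was sequenced from stranded mRNA libraries. The deposited signal is a normalized count for each gene, which the authors obtained from Salmon 0.9.1 (GRCm38, GC bias correction) and tximport, dividing by DESeq2 1.19.11 size factors in R 3.6.0. Whole reads were not recovered, so depth is unknown and no interval for counting error is given. Genotypes and replicate numbers came from the labels, and 0 columns were left unused.

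The scale was log2(normalized count + 1). Genes with at least 10 in at least 3 libraries were fitted with limma 3.58.1 (R 4.3.3, trend in the variance prior, all 9 libraries, no covariate), with Benjamini-Hochberg adjustment over 14239 genes at 0.05. The fit was tested on simulated data. Exact 2-sided permutation tests (3 against 3) have a smallest p of 0.1. Symbols matched 15457 of 15464 identifiers, and gene coordinates are GENCODE on GRCm38. SciPy 1.17.1, NumPy 2.4.6 and matplotlib 3.10.9 were used.

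Same-numbered KO and HET libraries correlated in their deviations from the genotype mean at 0.515, 0.281 and 0.506. HET 3 and KO 3 stand apart together, and deviations within a genotype cancel out. The other libraries of both genotypes are therefore moved alike, whatever their numbers. Correlations between differently numbered libraries were not computed. A pairing by number is thus not shown, and no label gives one. The members and lists were chosen with earlier results of these data known. Named genes were the 7 members, *Shank3*, *Cyp51*, *Fdps*, *Msmo1* and *Srebf2*, others of the pathway lists at an unadjusted p under 0.05 or without overlap between 2 genotypes, the most abundant marker of each cell type, and the 10 genes most alike to the members. *Ebp*, *Hsd17b7*, *Sc5d*, *Ggps1* and *Aspa* were named after their values were seen. Some genes of the pathway lists are not reported here and are left out of the lists' counts. Alternatives covered normalization, pseudocount, filter, variance prior, samples in the fit, replicate block, array weights and left-out libraries.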

Additional observations from a re-analysis of the deposited data

How the results depend on the processing

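Counts of genes past the adjusted threshold were 0 in each comparison under every alternative run. Medians over the members moved by less than the spread between mice (0.09, log2), with ranges of 0.079 to 0.21 in HET against WT, -0.024 to 0.13 in KO against WT and -0.14 to -0.020 in KO against HET. The number of members at an unadjusted p under 0.05 moved with the replicate block, to 2 in HET against WT, 1 in KO against WT and 1 in KO against HET, while all genes so called went from 158, 117 and 186 to 365, 310 and 318. With a replicate block and only the 2 genotypes compared, chosen after seeing the data, it was 2, 1 and 2, beside 225, 253 and 705 of all genes. *Dhcr7* entered the counts against WT, and the block changed no other call of a member than those given for KO against HET. Same-numbered libraries correlated at 0.319, -0.0142 and 0.00538 in HET against WT and at 0.243, -0.221 and 0.0244 in KO against WT. These mixed values do not show whether the numbers pair WT libraries with those of the mutants. Without both HET 3 and KO 3 the count in HET against WT was 0, beside 275 of all genes (1.93%). Leaving out 1 library gave 0 to 2 in HET against WT, 0 to 1 in KO against WT and 0 to 1 in KO against HET. The shares of all genes were 0.836% to 2.77%, 0.506% to 2.05% and 0.99% to 2.13%. The count of 2 came without HET 2, where the share was 2.77%.

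Signs of differences near 0 changed. In HET against WT, *Sqle* was 0.056 with array weights and 0.073 without HET 3 and KO 3, and -0.14 to 0.073 over single left-out libraries, where *Lss* was -0.13 to 0.18. In KO against WT, *Idi1* was 0.00096 with median centring, 0.081 with array weights and 0.072 without HET 3 and KO 3, where *Hmgcs1* was -0.019. Over left-out libraries *Hmgcs1* was -0.054 to 0.13, *Sqle* -0.069 to 0.091, *Idi1* -0.11 to 0.077 and *Lss* -0.024 to 0.12. In KO against HET, *Lss* was -0.021 with array weights, and over left-out libraries *Sqle* was -0.072 to 0.14, *Fdft1* -0.13 to 0.064, *Lss* -0.14 to 0.17 and *Dhcr7* -0.27 to 0.15. The cause was not tested. Depth is unknown, and 3 mice a genotype limit the precision, most of all for *Dhcr7*, which had the widest intervals.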
